A study of Mus musculus with 2 samples.

Results

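The 8 lysosomal cathepsin genes Ctsa, Ctsb, Ctsc, Ctsd, Ctsh, Ctsl, Ctss and Ctsz were chosen by name, out of 32285 genes counted, and followed across the cell classes of mouse lung tumors. The tumors were subcutaneous Lewis lung carcinomas (LLC, an established mouse line) in mice of strain C57BL/6, dissociated and profiled by droplet single-cell RNA sequencing. The study asked what loss of soluble guanylyl cyclase, the nitric oxide receptor, in pericytes does to tumors, and there was 1 library per genotype. The control, sGC-Ctr, came from Gucy1b1 flox/flox mice, and the other, sGC-dPC, from Cspg4-CreER T2::Gucy1b1 flox/flox mice, in which the Cspg4 gene drives a tamoxifen-inducible Cre in pericytes. Mice of both groups carried the floxed alleles, were given tamoxifen (5 doses) when 4 weeks old, and were inoculated when 8 weeks old. Tumors were taken 2 weeks later, and each library pooled the cells of 3 of them. The inoculated cancer cells carry neither the floxed alleles nor the Cre, so only host cells can recombine.

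Cathepsins are proteases that are made as inactive precursors, carried to the endosome and lysosome mainly by mannose 6-phosphate receptors, and activated there by acid and by other proteases. Most of the 8 are cysteine proteases: Ctsb, Ctsl and Ctss cut inside proteins, Ctsc and Ctsh remove residues from the amino end, and Ctsz from the carboxyl end. Ctsd is an aspartic protease and Ctsa a serine carboxypeptidase that also holds beta-galactosidase and neuraminidase together. In tumors, macrophages are a well-known source of cathepsins, which digest engulfed material and, when secreted, matrix.

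The 2 libraries differed in depth, and the genotype cannot be told apart from the library. sGC-Ctr had 12220 kept cells at a median of 35776.5 UMIs (unique molecular identifiers, 1 per counted RNA molecule) and sGC-dPC 22498 at 8685. Cells were assigned to 10 classes by marker genes, and all marker genes of each class were detected in it. No marker was a cathepsin or on the list of other lysosomal genes used below. The osteoclast-like markers did include Acp5 and Atp6v0d2, whose products also act in lysosomes. Droplets with markers of more than 1 family of classes, 5.92% and 15.2% of the kept cells, were set apart. Macrophages, monocytes, osteoclast-like cells and conventional dendritic cells were 1 family, so a cell could carry markers of several of these. In macrophages the level of cancer cell markers was 7.57% of that in cancer cells in sGC-Ctr and 15.97% in sGC-dPC. The libraries shared 131 barcodes, of which 98 were kept in both and 29 had the same class in both. In pericytes the targeted gene, Gucy1b1, was counted at 59 UMIs in the control library and at 12 in the other, or 130 and 43.5 CPM. CPM is the number of UMIs of a gene per 1000000 UMIs of a class. Each molecule was counted once at its tail, so levels of different genes were compared without a correction for length. With 1 library per condition no test was possible. Intervals are exact Poisson 95% intervals and cover counting error only.

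All 8 genes are protein-coding, and their identifiers in the files match the GENCODE annotation of mouse build mm10. Ctsa (ENSMUSG00000017760) lies on the plus strand at chr2:164832873-164841032, Ctsz (ENSMUSG00000016256) on the minus strand at chr2:174427493-174439039 and Ctsh (ENSMUSG00000032359) on the plus strand at chr9:90054152-90076089. The cysteine endopeptidase genes are Ctsb (ENSMUSG00000021939) at chr14:63122462-63145923 on the plus strand, Ctsl (ENSMUSG00000021477) at chr13:64359337-64370890 on the minus strand and Ctss (ENSMUSG00000038642) at chr3:95526786-95556403 on the plus strand. Ctsc (ENSMUSG00000030560) is at chr7:88278085-88310888 on the plus strand and Ctsd (ENSMUSG00000007891) at chr7:142375911-142388038 on the minus strand. On the other strand, Ctsa overlaps Neurl2 and Pltp, Ctsb overlaps Fdft1, Ctsc overlaps Gm26522, Ctsl overlaps Gm47123 and Ctsz overlaps Nelfcd. On the same strand, Ctsd overlaps Gm49369, Ctsl overlaps Gm49230 and Ctss overlaps Hmgb1-ps5, so the source of reads in the shared parts is uncertain. A further 9 genes with a Cts symbol, mostly of the placental family, had 5 UMIs in all against 21257 to 1143847 for each of the 8. Other cathepsins given below, such as Ctsk, are not among the 9. Whether reads that match several genes were lost cannot be seen in the counts.

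Lysosomal genes are known to be switched on together by Tfeb, Tfe3 and Mitf, which bind a motif built on the E-box CACGTG. The E-boxes in the cathepsin promoters are shown because levels of these factors are given below beside the cathepsins. Promoter windows from 250 bases before to 50 after an annotated start (RefSeq, GRCm38.p6) were matched for 6 of the 8 genes, while Ctsb and Ctsh had no entry. CACGTG, which reads the same on both strands, was found in the windows of 3 of the 6 (Ctsa, Ctsd and Ctsl). The longer CACGTGAC, searched on both strands and always overlapping the E-box, was found in 2 of the 6 (Ctsa and Ctsd). Over all 32851 windows, 7.15% held CACGTG and 2.25% CACGTGAC. A comparison of the shares is void, since too few of the members have a window. The RefSeq starts used for Ctsa, Ctsd and Ctsl lie inside the gene spans given above and not at their ends. Both Ctsa sites, the second Ctsd site and the Ctsl site therefore lie inside those spans too. The matches are printed in the direction of the gene, with the longest motif in capitals.
Ctsa, chr2:164833749-164833778, plus strand, with the E-box 12 bases before the start and the longer motif on the other strand: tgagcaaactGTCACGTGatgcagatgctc
Ctsa, chr2:164833766-164833795, plus strand, just after the same start: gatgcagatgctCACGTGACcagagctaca
Ctsd, chr7:142388055-142388077, minus strand, 245 bases before the start: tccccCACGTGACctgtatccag
Ctsd, chr7:142387908-142387937, minus strand, 98 bases before the start: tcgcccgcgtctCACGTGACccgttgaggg
Ctsl, chr13:64370739-64370768, minus strand, 236 bases before the start and with the short motif only: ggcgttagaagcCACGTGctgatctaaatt
The windows of Ctsc, Ctss and Ctsz held neither motif.

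Of the 10 classes, macrophages had the highest summed level of these 8 genes. Cathepsins outside the 8, such as Ctsk, are not in the sum. The 8 genes together made up 8937 CPM in sGC-Ctr macrophages (2084 cells) and 8384 CPM in those of sGC-dPC (2975 cells). Monocytes followed at 5277 and 5337 CPM, fibroblasts at 3881 and 3906 CPM, and cancer cells had 2209 and 2420 CPM. Which cathepsin led differed between the classes: Ctsb in macrophages, granulocytes, T cells and pericytes, Ctss in monocytes, Ctsz in osteoclast-like cells, and Ctsl in cancer cells, fibroblasts and endothelial cells, in both libraries. Conventional dendritic cells, with 15 and 12 cells, were led by Ctsz in sGC-Ctr and by Ctss in sGC-dPC. The kept cells were also clustered without the cathepsin genes, as described below. In sGC-Ctr, a cluster of 223 cells named conventional dendritic cells was led by Ctss, at 956 CPM, with Ctsz at 586 CPM. Every member was higher in this cluster than in the class of 15 cells. In cancer cells Ctsl alone made up 56.5% and 57.8% of the summed level.

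**Figure D1:**
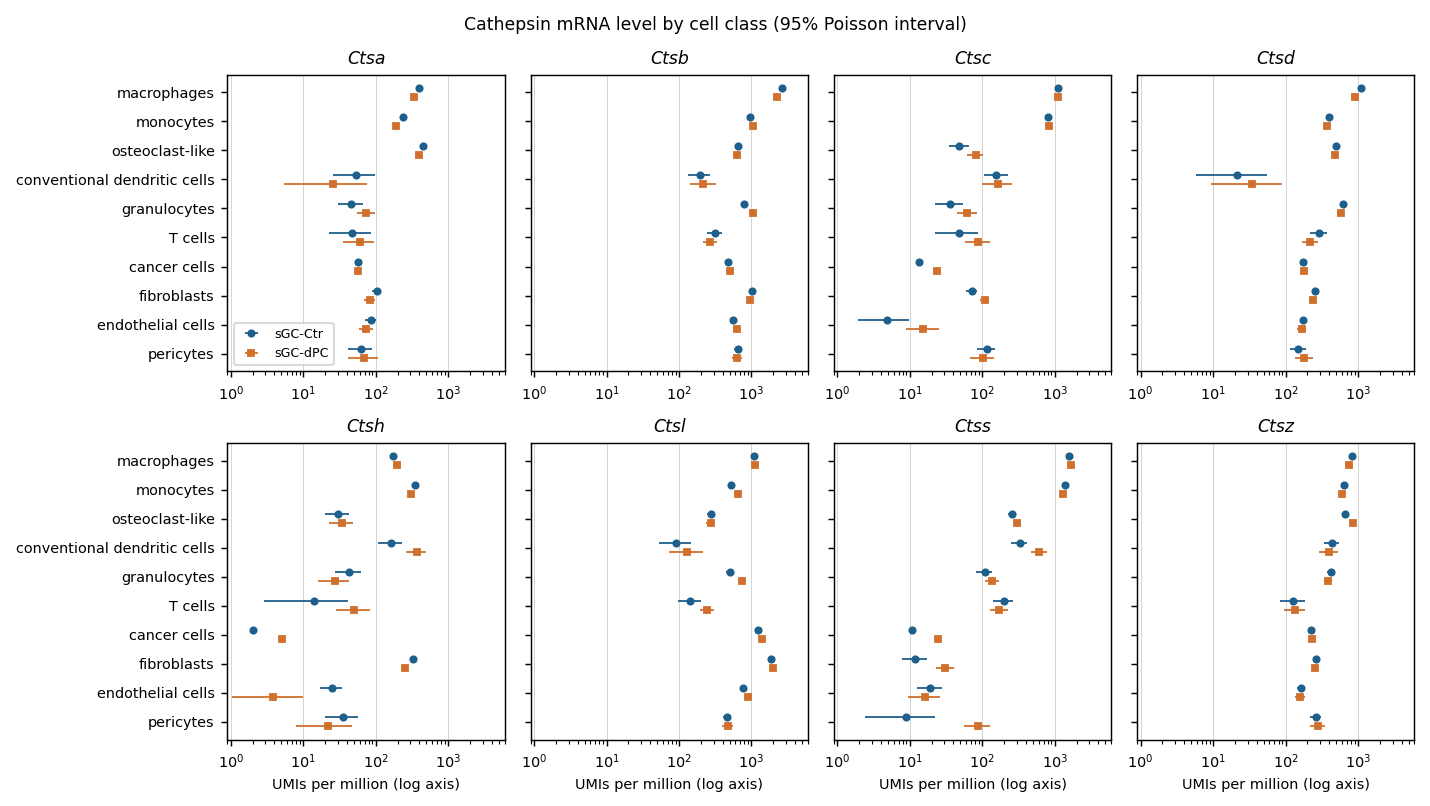
Levels of the 8 cathepsins in the 10 cell classes, as CPM on a log axis, with 1 point per library and exact Poisson 95% intervals. Ctss and Ctsc fall from over 1000 CPM in macrophages to under 25 CPM in cancer cells, while Ctsl stays between 1076 and 1398 CPM in both.

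Ctsb, a cysteine endopeptidase that also trims the carboxyl end of peptides, was highest in macrophages at 2659 CPM (interval 2639 to 2679) in sGC-Ctr and 2274 CPM (2255 to 2294) in sGC-dPC. Fibroblasts had 1014 and 953 CPM, monocytes 940 and 1054 CPM and granulocytes 787 and 1037 CPM. These 3 were the next classes in both libraries, in different orders. Osteoclast-like cells (660 and 637 CPM), pericytes (652 and 638 CPM) and endothelial cells (563 and 634 CPM) had overlapping intervals between neighbours. Cancer cells had 475 and 500.5 CPM, T cells 311 and 269 CPM and conventional dendritic cells 193 and 218 CPM.

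Ctsl, the main lysosomal cysteine endopeptidase of non-immune cells, was led by fibroblasts, with cancer cells second. Fibroblasts had 1837 CPM (1780 to 1896) in sGC-Ctr and 1980 CPM (1915 to 2047) in sGC-dPC, and cancer cells 1249 and 1398 CPM. Macrophages came next at 1076 and 1128 CPM, with intervals that did not meet those of cancer cells. Endothelial cells had 756 and 888 CPM, monocytes 523.5 and 659.5 CPM, granulocytes 505 and 750 CPM and pericytes 460 and 475 CPM. The lymphoid and dendritic cells were lowest, with 142 and 245 CPM in T cells and 91.1 and 131 CPM in conventional dendritic cells. Osteoclast-like cells had 273 and 272 CPM.

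Ctss, which stays active at neutral pH and cuts the invariant chain during antigen presentation, was high in macrophages and monocytes and low outside the blood lineages. Macrophages had 1585 CPM (1570 to 1601) and 1678 CPM (1661 to 1695), and monocytes 1403 and 1307 CPM. Conventional dendritic cells had 327 and 610 CPM, osteoclast-like cells 261 and 303.5 CPM, T cells 198 and 171 CPM and granulocytes 108 and 137 CPM. In the dendritic cluster of sGC-Ctr, with 223 cells, Ctss was at 956 CPM. The classes outside the blood lineages were at the bottom in sGC-Ctr: endothelial cells at 19.2 CPM, fibroblasts at 11.9 CPM, cancer cells at 10.6 CPM and pericytes at 8.84 CPM, with overlapping intervals between neighbours. In sGC-dPC they had 16.4, 30.9, 24.3 and 87.0 CPM, in the same order of classes.

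Ctsc, dipeptidyl peptidase I, which activates the serine proteases of granules, was also a gene of macrophages and monocytes. Macrophages had 1111 and 1117 CPM and monocytes 796 and 830 CPM. No other class passed 166 CPM. Conventional dendritic cells had 155 and 165.5 CPM, pericytes 115 and 101 CPM, fibroblasts 71.3 and 108 CPM, osteoclast-like cells 48.3 and 80.7 CPM, T cells 47.2 and 87.3 CPM and granulocytes 35.9 and 61.6 CPM. Cancer cells had 13.4 and 24.1 CPM, and endothelial cells 4.80 and 15.4 CPM on 7 and 16 UMIs.

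Ctsh, an aminopeptidase, was the lowest of the 8 in macrophages, at 172 and 194 CPM, and its order of classes was its own. In sGC-Ctr it was highest in monocytes at 347 CPM (327 to 369) and in fibroblasts at 323 CPM (299 to 348), whose intervals overlap. In sGC-dPC the leaders were conventional dendritic cells at 366 CPM (264 to 494.5), on 42 UMIs in 12 cells, and monocytes at 310.5 CPM (292 to 330), again overlapping. Fibroblasts there had 253 CPM, and conventional dendritic cells of sGC-Ctr 161 CPM. The dendritic cluster of 223 cells in sGC-Ctr had 457 CPM, above every class of that library. In fibroblasts Ctsh was carried by 83 of 93 cells in sGC-Ctr and 80 of 200 in sGC-dPC. The median depths of these cells were 22156 and 2400 UMIs, so the 2 shares are not comparable. With every fibroblast thinned to 2000 UMIs, Ctsh was found in 43.3% and 27.0%, with overlapping intervals for the shares. Thinning left out 3 and 85 fibroblasts. Without thinning, the richest fibroblast held 5.6% and 10.2% of the Ctsh UMIs. The remaining classes were between 2.00 CPM, in sGC-Ctr cancer cells, and 50.4 CPM, in sGC-dPC T cells, where 1 cell held 13 of 15 UMIs.

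Ctsz, cathepsin X, a carboxypeptidase, was the most evenly spread. Macrophages had 828 and 752 CPM, osteoclast-like cells 670 and 843 CPM and monocytes 634 and 607 CPM, so that macrophages led in sGC-Ctr and osteoclast-like cells in sGC-dPC. By cluster, the osteoclast-like cells of sGC-dPC did not lead: they had 749 CPM, between the macrophage clusters at 730 and 818 CPM. Conventional dendritic cells (434 and 401 CPM) and granulocytes (419 and 383 CPM) were next, with overlapping intervals. Fibroblasts, pericytes and cancer cells lay between 228 and 279 CPM, endothelial cells had 166 and 157 CPM and T cells 127 and 134 CPM.

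Ctsd, the aspartic endopeptidase, had 1112 CPM (1099 to 1125) in sGC-Ctr macrophages and 897.5 CPM (885 to 910) in those of sGC-dPC, above every other class. Granulocytes followed at 621 and 575 CPM, osteoclast-like cells at 494 and 484 CPM and monocytes at 394 and 377 CPM. T cells had 288 and 218 CPM, fibroblasts 259 and 243 CPM, and cancer cells, endothelial cells and pericytes between 150 and 181 CPM. Conventional dendritic cells had 4 UMIs in each library, or 21.4 and 34.8 CPM. In the dendritic cluster of sGC-Ctr, with 223 cells, Ctsd was at 139 CPM.

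Ctsa, the protective carboxypeptidase, was by class highest in osteoclast-like cells, at 445.5 CPM (404 to 490.5) and 394 CPM (352 to 439), just above macrophages at 395 CPM (387 to 402.5) and 342 CPM (335 to 350). This order depended on how cells were grouped. The cluster named osteoclast-like had 365 CPM in sGC-Ctr and 309 CPM in sGC-dPC. The largest macrophage cluster had 431.5 and 365 CPM, and the other macrophage clusters lay between 291 and 328 CPM. Monocytes had 238 and 192 CPM. Fibroblasts were at 103 and 82.9 CPM and endothelial cells at 85.7 and 74.4 CPM. Pericytes, cancer cells, T cells, granulocytes and conventional dendritic cells lay between 26.1 and 73.6 CPM, with neighbours in that order overlapping in both libraries.

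Against cancer cells, 7 of the 8 genes were at least 1.5-fold higher in macrophages in each library, and Ctsl was the exception. Of all genes with at least 50 UMIs in the pair of classes, 31.0% were higher by that fold in sGC-Ctr and 29.6% in sGC-dPC. None of the 8 was lower by it, against 29.7% and 30.7% of all genes. On the log2 scale, the ratio of macrophages to cancer cells was 7.22 in sGC-Ctr and 6.11 in sGC-dPC for Ctss, 6.42 and 5.25 for Ctsh and 6.37 and 5.54 for Ctsc. It was lower, and closer between the libraries, for Ctsa (2.79 and 2.59), Ctsd (2.67 and 2.33), Ctsb (2.48 and 2.18) and Ctsz (1.86 and 1.69). For Ctsl it was -0.21 and -0.31. The median over the 8 genes was 2.73 and 2.46, beside 0.01 and -0.04 over all genes tested.

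The 3 genes with the steepest ratios were in cancer cells at a percent of their macrophage level like that of other macrophage genes. For this, 8 macrophage genes kept out of the cell assignment (Lyz2, Tyrobp, Fcer1g, Cd14, Spi1, Ms4a6c, Cybb and Fcgr3) served as a reference, chosen after the counts were seen. In sGC-Ctr cancer cells these had a median of 0.762% of their macrophage level (range 0.573% to 2.50%), and in sGC-dPC 1.64% (1.38% to 3.501%). Ctss stood at 0.669% and 1.45%, Ctsc at 1.21% and 2.16% and Ctsh at 1.17% and 2.63%, all inside those ranges, with Ctsc and Ctsh above the medians in both libraries. Their counts in cancer cells were not read as expression, and the part of stray macrophage RNA in them was not tested. Ctsa at 14.4% and 16.6%, Ctsd at 15.7% and 19.9%, Ctsb at 17.9% and 22.0%, Ctsz at 27.5% and 31.0% and Ctsl at 116% and 124% were above them.

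The share of cancer cells with a UMI depends on the level of a gene, and it was lowest for the same 3 genes. With every cell thinned to 2000 UMIs, the cancer cells with a Ctsl UMI were 82.1% of the control library's and 88.3% of the other's, and those with Ctsb 57.6% and 60.2%. Ctsz was found in 35.1% and 38.8%, Ctsd in 28.8% and 30.6% and Ctsa in 10.6% and 11.3%. Ctss was found in 2.09% and 6.75%, Ctsc in 2.89% and 5.82% and Ctsh in 0.415% and 1.54%. In sGC-dPC the share of Ctsa was thus not far above that of Ctss. Without thinning, at median depths of 51760.5 and 17751 UMIs, Ctss was found in 35.9% and 40.2% of cancer cells and Ctsl in 99.7% and 99.5%. In thinned macrophages Ctss was found in 90.4% and 89.8%, Ctsb in 93.7% and 92.7% and Ctsh in 28.3% and 27.0%. Thinning left out 13 and 112 cancer cells and 21 and 865 macrophages.

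**Figure D2:**
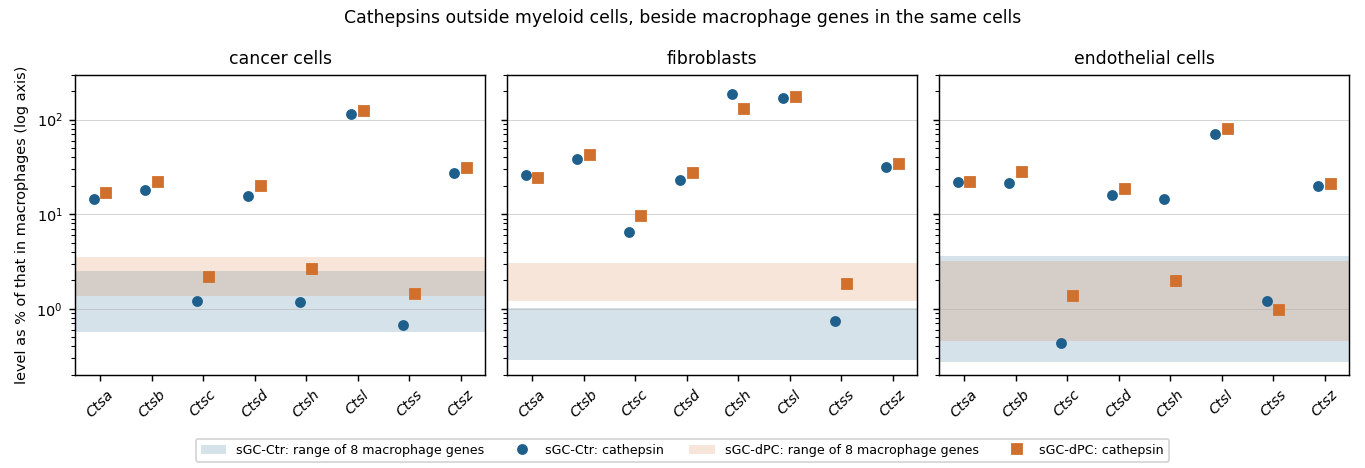
Level of each cathepsin in cancer cells, fibroblasts and endothelial cells as a percent of its macrophage level in the same library (log axis), beside the range of 8 macrophage reference genes. In cancer cells Ctss, Ctsc and Ctsh fall inside the range and the other 5 lie above it.

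In fibroblasts, unlike in cancer cells, Ctsh and Ctsc were above the macrophage reference. Ctsh stood at 188% and 130% of its macrophage level and Ctsc at 6.42% and 9.67%, above the reference ranges of 0.288% to 1.03% and 1.21% to 3.05%, while Ctss, at 0.750% and 1.84%, was inside them. The log2 ratio of fibroblasts to cancer cells was 7.33 and 5.63 for Ctsh and 2.41 and 2.17 for Ctsc. It was 1.09 and 0.93 for Ctsb and 0.85 and 0.54 for Ctsa. At least 1.5-fold higher in fibroblasts were 4 of the 8 genes in sGC-Ctr (background 33.9%) and 3 in sGC-dPC (33.3%), a share near that of all genes. None was lower by the fold (24.8% and 24.3% of all genes). In pericytes Ctsc, at 10.3% and 9.08%, was above its reference in both libraries. In endothelial cells Ctss and Ctsc were not above theirs in either library.

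The clusters of all kept cells, made without the cathepsin genes, were named by their summed marker profile. They can therefore hold droplets that were set apart or left out of the classes. Counted here were clusters named cancer cells, of at least 100 cells with a median of at least 2000 UMIs. Ctsl ran from 874 to 2085 CPM in the 10 clusters of sGC-Ctr and from 1092 to 1716 CPM in the 8 of sGC-dPC. Ctsb ran from 299 to 725 CPM and from 426 to 582 CPM. Both were thus present in each of these clusters. Ctss ran only from 6.28 to 10.2 CPM in sGC-Ctr but from 11.8 to 149.6 CPM in sGC-dPC, and its highest values there were in the 2 clusters with the highest macrophage marker level, 7.27 and 6.56 per 10000 UMIs against 0.651 to 1.22 in the others. The part of macrophage RNA and of mixed droplets in the spread was not tested.

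Within the myeloid lineage, monocytes and osteoclast-like cells were compared with macrophages. In monocytes Ctsh was at least 1.5-fold higher, with log2 ratios of 1.02 and 0.68, and it was the 1 gene of the 8 that was (background 12.7% and 11.1%). Ctsa, Ctsb, Ctsd and Ctsl were lower by that fold in both libraries (background 29.3% and 23.8%), with Ctsb at -1.50 and -1.11 and Ctsd at -1.50 and -1.25. Ctss and Ctsz differed less, by -0.18 to -0.38. Ctsc stood at -0.48 and -0.43. Relative to macrophages, monocytes thus had more Ctsh and less Ctsa, Ctsb, Ctsd and Ctsl. By level, Ctsb was still second to Ctss in monocytes of both libraries.

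Osteoclast-like cells, multinucleated bone-resorbing cells in the body and here 55 and 81 cells with the markers Mmp9, Acp5 and Ocstamp, kept Ctsa and Ctsz and had less of the rest. None of the 8 was higher than in macrophages by 1.5-fold (background 15.6% and 17.6%) and 6 were lower (background 32.7% and 30.5%). Ctsc was lowest, at log2 ratios of -4.52 and -3.79, and Ctsa stood at 0.17 and 0.20. Ctsk, the collagen-degrading cathepsin of osteoclasts, which is not among the 8, had 5897 and 5857 CPM, above the level of every member in every class.

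Macrophages were split by marker scores into 5 states and a remainder, where a state is a range of a score and not a type. In sGC-Ctr and sGC-dPC, 24.2% and 24.4% of macrophages lay within 0.05 of the cut. MHC class II high cells (247 and 560) made up 11.9% and 18.8% of macrophages, resident-like cells (388 and 336) 18.6% and 11.3%, Gpnmb-high cells (337 and 496) 16.2% and 16.7%, proliferating cells (234 and 247) 11.2% and 8.30%, and Il1b-high cells (145 and 223) 6.96% and 7.50%. The cathepsins did not move as 1 block over these states.

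MHC class II high macrophages, the antigen-presenting state, had more Ctsh and less Ctsd, Ctsb and Ctsl. Ctsh was 358 and 336.5 CPM there, with log2 ratios to the other macrophages of 1.25 and 1.05. It was the 1 gene of the 8 that was higher by 1.5-fold (background 5.94% and 4.31%). Lower by that fold were 3 (background 14.2% and 9.94%): Ctsd at 480 and 475 CPM (-1.30 and -1.06), Ctsb at 1431 and 1447 CPM (-0.97 and -0.76) and Ctsl at 608 and 716 CPM (-0.89 and -0.77). Ctss, the invariant chain protease, had its highest level of any state here, 2026 and 2031 CPM, a log2 ratio of 0.40 and 0.35 that is under 1.5-fold. The monocyte marker level was also higher in these cells than in most others, with a median of 6.68 and 6.24 per 10000 UMIs against 0 and 0.401 in resident-like cells, and its part in the result was not tested.

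Resident-like macrophages (Mrc1, Folr2, Lyve1) had the most Ctsb and Ctsd. Ctsb reached 4230 and 4051 CPM, the highest level of any member in any class or state, with log2 ratios of 0.91 and 1.03. Ctsd reached 1833 and 1600 CPM, with 0.99 and 1.03. These 2 of the 8 were higher by 1.5-fold (background 7.15% and 7.63%), and 0 were lower (6.99% and 6.82%). Ctsh, at 171 and 172 CPM, and Ctss, at 1632 and 1665 CPM, stood within 0.20 of the other macrophages on the log2 scale.

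Gpnmb-high macrophages, which carry genes of lipid and matrix handling such as Spp1, Fabp5 and Mmp12, had the most Ctsl, 1587 and 1625 CPM. Ctsl (0.69 and 0.67) and Ctsd (0.62 and 0.67) were higher by 1.5-fold (background 3.87% and 3.30%), and 0 of the 8 were lower (9.99% and 8.20%). Ctsb was at 3462 and 3101 CPM (0.46 and 0.56). Ctsc, at 893 and 838 CPM, was lower than in the other macrophages by less than 1.5-fold, at -0.36 and -0.49.

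Proliferating macrophages had the lowest Ctss, 1071 and 1101 CPM, a log2 ratio of -0.66 in both libraries. Lower by 1.5-fold were Ctss and Ctsh (-0.85) in sGC-Ctr (background 10.0%) and Ctss and Ctsd (-0.68) in sGC-dPC (background 9.90%). None of the 8 was higher by it (12.6% and 14.5% of all genes). In Il1b-high macrophages, which carry inflammatory cytokine genes, Ctsb and Ctsd were lower by that fold in sGC-Ctr (-0.62 and -0.61, background 13.4%). In sGC-dPC they stood at -0.46 and -0.31, and 0 of the 8 were past the fold (background 9.90%). None was higher by the fold in either library (8.46% and 6.92% of all genes). In macrophages of no state (733 and 1113), 1 of the 8, Ctsh at -0.61 in sGC-dPC, was lower by the fold (background 7.46% and 6.05%).

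**Figure D3:**
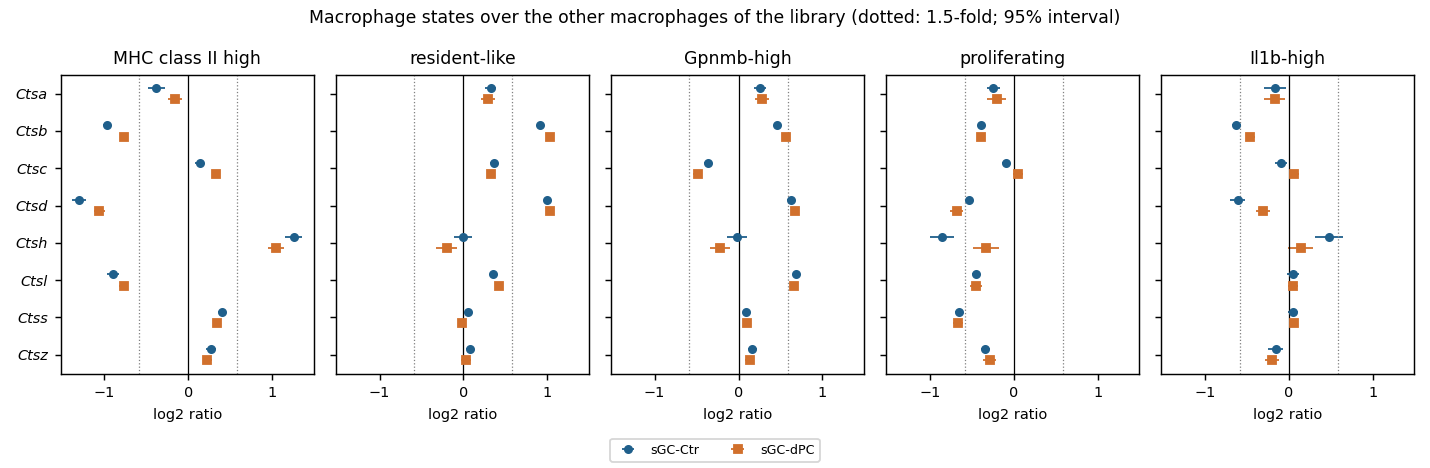
Log2 ratio of each cathepsin in a macrophage state to the other macrophages of its library, with 95% intervals for counting error and dotted lines at 1.5-fold. Ctsb and Ctsd lie above 0 in resident-like and Gpnmb-high cells and below 0 in the MHC class II high, proliferating and Il1b-high cells of both libraries, and Ctsh has its highest ratio in MHC class II high cells.

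Between the libraries, none of the 8 genes differed by 1.5-fold in macrophages, where 4.46% of all tested genes were higher in sGC-dPC by that fold and 2.42% lower. The log2 ratio of sGC-dPC to sGC-Ctr was -0.31 (interval -0.33 to -0.28) for Ctsd, -0.23 (-0.24 to -0.21) for Ctsb, -0.21 for Ctsa and -0.14 for Ctsz. It was 0.18 for Ctsh, 0.08 for Ctss, 0.07 for Ctsl and 0.01 for Ctsc. The median over the 8 was -0.06, beside -0.05 over all genes. With each cell thinned to 2000 UMIs, Ctsh stood at -0.16 and Ctss at -0.13 (21 sGC-Ctr and 865 sGC-dPC macrophages were left out there).

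The states with the most Ctsb and Ctsd and those with the least differed in size between the libraries, so the ratios were also taken within states. For Ctsb the ratio was 0.02 in MHC class II high cells, -0.06 in resident-like and in Il1b-high cells, -0.16 in Gpnmb-high cells and -0.25 in proliferating cells. In macrophages of no state, the largest group, it was -0.19 for Ctsb and -0.16 for Ctsd. For Ctsd it was -0.02 in MHC class II high and Il1b-high cells, -0.20 in resident-like, -0.29 in Gpnmb-high and -0.48 in proliferating cells. The 1 ratio past 1.5-fold within a state was that of Ctsh in proliferating cells, 0.62 (0.41 to 0.82), with 103 CPM in sGC-Ctr and 158 CPM in sGC-dPC (background 3.76% higher). Proliferating cells had a median of 17030.5 UMIs in sGC-Ctr and 3623 in sGC-dPC. Their cancer marker level was 6.40% and 16.6% of that in cancer cells. The part of depth and stray RNA was not tested, and ratios between the libraries within states were not recomputed under other processing settings. Over the 5 states and the remainder, 3.16% to 4.39% of all genes were higher by that fold within a state and 1.46% to 3.12% lower. The part of the mix of states in the ratio over all macrophages was not tested.

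In cancer cells Ctsh (1.35), Ctss (1.19) and Ctsc (0.84) were higher in sGC-dPC by 1.5-fold, 3 of the 8 against 8.00% of all genes, and 0 of the 8 were lower (0.697%). These are the 3 genes that stood inside the range of the macrophage reference, whose median in the same cells was 0.762% of the macrophage level in sGC-Ctr and 1.64% in sGC-dPC. The part of stray macrophage RNA in the 3 ratios was not tested. The other 5 were between -0.00 and 0.16, with Ctsl at 0.16 (0.16 to 0.17).

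Fibroblasts had Ctss (1.38) and Ctsc (0.60) higher in sGC-dPC, 2 of the 8 (background 4.52%), with 0 lower (4.93%), and Ctsh at -0.35 (-0.53 to -0.18). These fibroblasts had a median of 2400 UMIs against 22156 in sGC-Ctr, and a cancer marker level of 21.8% of cancer cells against 5.22%. Ctss rested on 25 and 54 UMIs and was inside its reference range in both libraries. The part of the depth and the stray RNA was not tested.

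Pericytes, the cells in which the Cre is active, had 37 and 38 cells, and 0 of the 5 members tested there differed by 1.5-fold (background 4.71% higher and 8.96% lower). Ctsb stood at -0.03 (-0.31 to 0.24), Ctsl at 0.05 (-0.28 to 0.37), Ctsz at 0.10 (-0.34 to 0.52), Ctsd at 0.27 (-0.29 to 0.82) and Ctsc at -0.18 (-0.90 to 0.51). The intervals of Ctsd and Ctsc reach past 1.5-fold. Since the intervals leave out variation between cells and libraries, a difference of that size is not excluded for any member. Ctss, with too few UMIs to be tested, had 4 UMIs in sGC-Ctr and 24, in 14 cells, in sGC-dPC. It stood at 0.558% and 5.18% of its macrophage level, beside reference ranges of 0% to 2.03% and 0% to 4.79%. The reference median in pericytes was 0.529% and 2.02%, and their cancer marker level was 8.03% and 18.6% of that in cancer cells. The part of stray RNA in the Ctss counts was not tested. In endothelial cells 0 of 5 were past the fold (background 5.54% higher and 3.87% lower), with Ctsl at 0.23 (0.10 to 0.36). The cancer marker level in endothelial cells was 9.17% and 11.1% of that in cancer cells, and its part in the Ctsl ratio was not tested. Ctsh there had 36 and 4 UMIs, and 1 cell held 41.7% of the 36.

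Among the other blood cells, monocytes had 0 of the 8 past 1.5-fold (background 4.04% higher and 1.97% lower), with Ctsl at 0.33 (0.24 to 0.43) and Ctsa at -0.31 (-0.47 to -0.15). Osteoclast-like cells had 1, Ctsc at 0.74 (0.17 to 1.32; background 5.13% higher and 4.71% lower), and Ctsz at 0.33 (0.17 to 0.49). Granulocytes had 2 of 7 tested, Ctsc at 0.78 (-0.01 to 1.61) and Ctsa at 0.67 (-0.03 to 1.41), against a background of 7.12% higher and 7.84% lower, and the intervals of both reach 0. In granulocytes Ctsl was at 0.57 (0.36 to 0.78), just under the fold. T cells had 1 of 5, Ctsl at 0.79 (0.16 to 1.46; background 6.56% higher and 8.72% lower), on 30 and 73 UMIs. Ctsl leads in cancer cells, whose marker level in T cells was 12.4% and 17.5% of that in cancer cells. In granulocytes this marker level was 19.6% and 22.9%, and in monocytes 7.62% and 13.8%. The part of stray cancer cell RNA in the Ctsl counts of these classes was not tested. Conventional dendritic cells had 2 of 4, Ctsh at 1.19 (0.48 to 1.91) and Ctss at 0.90 (0.38 to 1.42), against 11.5% of all genes higher and 16.2% lower, with 15 and 12 cells, and the ratio of Ctss was -0.01 under a looser cell assignment.

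**Figure D4:**
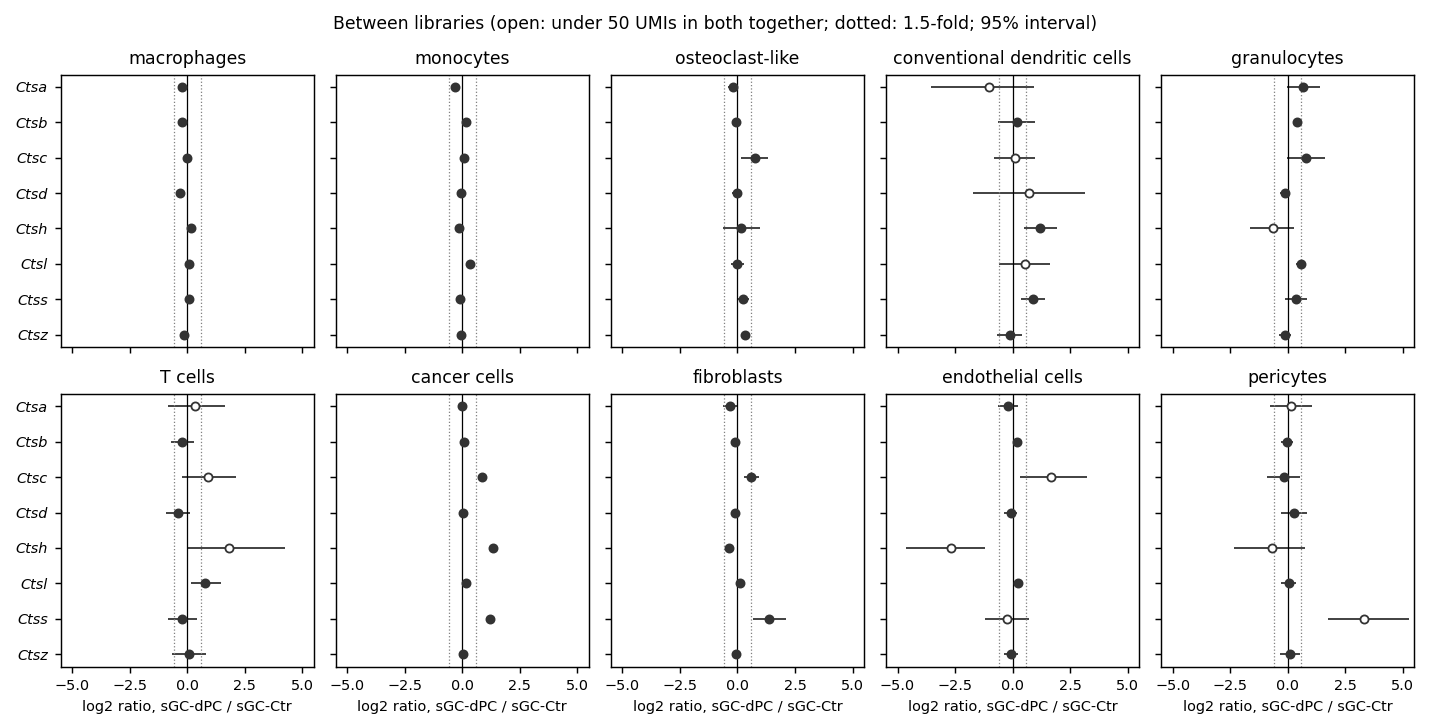
Log2 ratio of sGC-dPC to sGC-Ctr for the 8 cathepsins in each cell class, with 95% intervals for counting error and dotted lines at 1.5-fold. The macrophage points lie between -0.31 and 0.18, and the points farthest to the right in cancer cells are Ctsh, Ctss and Ctsc.

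The genes around the cathepsins showed where their partners are expressed. Lgmn, the legumain that processes cathepsin precursors, had 973 and 818 CPM in macrophages and no more than 301 CPM elsewhere. Cd74, the invariant chain that Ctss cuts, had 13193 and 10330 CPM in conventional dendritic cells, 1646 and 2571 CPM in macrophages and a log2 ratio of 0.64 between the macrophages of the libraries. Among the classes, Glb1, the beta-galactosidase that Ctsa protects, was highest in osteoclast-like cells, at 101 and 106 CPM, like Ctsa. Neu1, its neuraminidase partner, was not, with 53.7 and 44.6 CPM there and 66.9 and 64.4 CPM in macrophages. M6pr, a mannose 6-phosphate receptor, had 197 and 185 CPM in macrophages and 37.6 and 41.7 CPM in cancer cells.

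Inhibitors differed by class. Cst3, the secreted cystatin C, was highest in conventional dendritic cells, at 22253 and 16975 CPM, where Ctsb and Ctsl were low. Cstb, the cytosolic cystatin B, led in osteoclast-like cells, at 1512 and 1270 CPM. Stfa2l1, a stefin, was found mainly in granulocytes, at 1088 and 590.5 CPM. In T cells the cathepsin Ctsw had 160 and 252 CPM and Cst7, cystatin F, 99.1 and 127.6 CPM. Of 6 genes for sorting to the lysosome, 4 were higher in macrophages than in cancer cells by 1.5-fold in each library (31.0% and 29.6% of all genes).

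The wider lysosome was compared between the same classes. Of 37 other lysosomal genes, 34 were higher in macrophages than in cancer cells by 1.5-fold in each library, against the shares of all genes given above, with a median log2 ratio of 2.02 and 1.82. Gaa, the acid glucosidase, was lower, at -0.67 and -0.70. In fibroblasts over cancer cells 27 and 22 of the 37 were higher by that fold (background 33.9% and 33.3%), where 4 and 3 of the 8 cathepsins were. In osteoclast-like cells over macrophages the median of the 37 was -0.23 and -0.21, with 7 and 10 higher and 15 and 13 lower, while that of the 8 cathepsins was -1.99 and -1.94 and that of all genes -0.20 and -0.13. Tfeb (14.4 and 15.5 CPM in macrophages, 1.91 and 1.86 CPM in cancer cells), Tfe3 (63.1 and 59.0, 11.7 and 12.04 CPM) and Mitf (40.9 and 42.5, 4.31 and 5.27 CPM) were all higher in macrophages. Between the macrophages of the 2 libraries, 0 of the 37 differed by 1.5-fold (4.46% of all genes higher and 2.42% lower). Their median was -0.12, with 4 of the 37 above 0, and over all genes the median was -0.05, with 4673 of 11747 above 0.

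Over the 20 points given by 10 classes in 2 libraries, the genes most like each member were named by the Pearson correlation of log2(CPM + 1), out of 12753 genes, as a description only, since points of a library share its depth. Ctss was most like Myo1f (0.953), Irf5 (0.945) and Clec4a1 (0.943), and Ctsc like Slc7a8 (0.916), Pid1 (0.907) and Fcgr2b (0.893). Ctsz was most like Clec4a2 (0.915), Clec4a3 (0.907) and Cd68 (0.905), and Ctsb like Cebpa (0.927), Cltc (0.861) and Sptlc2 (0.860). Several of these are genes of myeloid cells. Ctsa was most like Serpinb8 (0.948), Slc16a7 (0.919) and Atp6ap1 (0.918), Ctsd like Hgsnat (0.882), Itsn1 (0.865) and Ninj1 (0.840), and Ctsh like Map2k1 (0.843), Slc8a1 (0.842) and P2rx4 (0.828). Ctsl was most like Cep170 (0.887), Vcam1 (0.879) and Pttg1ip (0.877), and among the members most like Ctsb (0.701). Among the members themselves the closest pair was Ctsb and Ctsd (0.815), followed by Ctsc and Ctss (0.791), and the least alike were Ctsl and Ctss (-0.37).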

How the data were processed

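Single-cell libraries of dissociated LLC tumors, 1 for sGC-Ctr and 1 for sGC-dPC, were analysed. The authors aligned and counted reads with Cell Ranger 6.1.1 on mm10, per their processing notes, and deposited UMI counts per gene and barcode (487859656 and 436352742 UMIs in 15007 and 25631 barcodes). These counts were used as deposited. Neither ambient RNA nor doublets had been removed by a stated step, and no doublet caller was run here.

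Barcodes were kept under 10% mitochondrial UMIs and within 3 median absolute deviations, which left 12220 and 22498 cells. Each was assigned to a class where its summed marker level passed a cut and no other family's did. Cells with markers of several families (724 and 3423) and cells below every cut (1561 and 4989) were left out, as were natural killer and B cells, with at most 8 cells per library. The cuts on classes and states (state score cut 0.25) were set after seeing the distributions. The members and gene lists were chosen with earlier results of these data known. All 8 members are named throughout, list genes where they lead their list or are a partner of a member, and the 3 genes most like each member.

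UMIs were summed per class and scaled to CPM. Genes with at least 50 UMIs in both groups together count as tested, and a fold of 1.5 as past the threshold. Log2 ratios have exact conditional 95% intervals. With 1 library per condition there is no test and no p-value, intervals cover counting error only, and nothing separates genotype from library. Alternatives were another cell filter, mitochondrial limits, thinning to 2000 UMIs, stricter and looser cuts, means over cells, Leiden clusters, leaving out cells high in cancer markers, and centring on the median gene. No Leiden cluster was named fibroblasts, pericytes or granulocytes, and none in sGC-dPC endothelial or conventional dendritic cells. These classes therefore have no ratio between libraries under that alternative. Scripts were checked on simulated data. Tools were Python 3.11.15, numpy 2.4.6, scipy 1.17.1, pandas 2.3.3, scanpy 1.11.5, leidenalg 0.10.2 and matplotlib 3.10.9.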

Additional observations from a re-analysis of the deposited data

How the results depend on the processing

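Over 1287 values under alternatives, 1 ratio past 1.5-fold changed sign: Ctss in conventional dendritic cells between the libraries, -0.013 under the looser cuts. Ratios under that fold are not in this count, and of these Ctsh and Ctss in macrophages between the libraries were below 0 with thinning. Of the values for single genes, 816 lay inside the counting interval of the main ratio and 313 moved outside it. The largest shift on the log2 scale was 1.95, for Ctss in fibroblasts between the libraries with the mean over cells. The count of 7 of 8 members higher in macrophages than in cancer cells held under every alternative. The next counts take a ratio once per alternative, so the same ratio is counted several times. Class ratios here are those of macrophages to cancer cells, and the other ratios between classes were not recomputed. All 98 values of called class ratios and all 132 of called state ratios kept their sign, with 98 and 120 still past 1.5-fold. Between libraries 81 of 82 values kept it, with 70 still past 1.5-fold. Counts of members past 1.5-fold in a state moved as follows. In sGC-Ctr, Gpnmb-high cells went from 2 to 0 under stricter cuts, proliferating cells from 2 to 0 with thinning, and Il1b-high cells from 2 to 0 with thinning and to 1 under stricter cuts, looser cuts or the mean over cells. In sGC-dPC, with thinning, resident-like cells went from 2 to 4, and Gpnmb-high and proliferating cells from 2 to 1, the last also with the mean over cells. Between the libraries, osteoclast-like cells went from 1 to 0 under 5% mitochondrial UMIs, with Leiden clusters or without cells high in cancer markers, to 2 with thinning and to 3 with the mean over cells. Conventional dendritic cells went from 2 to 0 under looser cuts and to 1 with the mean over cells. Granulocytes went from 2 to 1 under 5% mitochondrial UMIs, thinning, looser cuts, the mean over cells, or without cells high in cancer markers. T cells went from 1 to 2 with the mean over cells and to 3 with Leiden clusters. Fibroblasts went from 2 to 1 under 5% mitochondrial UMIs, stricter cuts, or without cells high in cancer markers, and pericytes from 0 to 1 with thinning. The cause of these moves was not tested. No paired analysis was possible because each condition has 1 library. The lowest counts, in dendritic cells, T cells and pericytes, limit what could be seen there.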
